A study of Arabidopsis thaliana with 4 samples.

Results

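The comparison set the as1-1 mutant against the as2-1 mutant of Arabidopsis thaliana, 1 Affymetrix array for each, out of 4 arrays in the series. Both arrays were chosen by their genotype labels, and all 22746 probe sets were used. The other arrays, 1 of wild type and 1 of an AS2 overexpressing line, are given beside them for reference. Every line was in the Col-0 background, and the RNA came from shoot apices that carried leaf primordia, taken after 14 days from soil-grown plants on a cycle of 16 hours light and 8 hours dark. The origin of the alleles, the promoter behind the overexpression, the number of apices per sample and the hour of harvest are not given in the sources used here.

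AS1 is a MYB-domain protein and AS2 a nuclear protein of the LBD family. They bind each other, and the complex holds class I KNOX genes silent in leaf primordia and promotes the upper, adaxial, side of the leaf. Loss of either gives lobed, asymmetric leaves. The comparison asked which functions separate mutants that lack partners of the same complex. Probe sets listed under the names AS1 or AS2 were not found in the naming table, so neither mutated gene was checked on its own array.

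Values are the deposited linear signals, and signals under 43 were raised to 43. A difference is the log2 signal of as1-1 minus that of as2-1, so a positive value means higher in as1-1, and a probe set was counted as apart when it reached 2-fold. Where 1 of the mutant arrays lay under 43 the difference is a lower bound, and where both did none was computed. Of 262 loci in 19 gene lists, 57 had a probe set named in the naming table, and 46 were measured. Loci without a named probe set were not examined, so a list's unmeasured loci need not have low signals. With 1 array per genotype there is no replicate, so no value has an error or a test, and every statement describes these arrays only. In whole apices, fewer cells of a type and less RNA per cell cannot be told apart.

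Between 59.03% and 60.96% of probe sets lay at or above 43 on each of the 4 arrays. Of the tissue markers, the leaf primordium genes YAB3, a YABBY transcription factor gene, and PHV, an HD-ZIP III gene, had signals of 369.1 and 303.3 in as1-1 and 434.3 and 275.4 in as2-1. SPCH, which starts the stomatal lineage, stood at 193.5 and 216.8. EXPA7, an expansin gene of root hairs, lay under 43 on all 4 arrays, at 14.1 in as1-1 and 2.8 in as2-1. The floral list held 1 named gene, AGL24, at 76.4 and 114.3, and no named class I KNOX gene was available as a marker of the meristem. Reference genes had a median log2 difference of -0.16 over 5 genes, and the largest of them, AT5G15710, reached 0.58 (128.4 against 85.6).

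The mutants were close to each other. The named genes that parted them most were COR15A, a chloroplast-targeted cold-response protein, and the clock gene GI, which also times flowering, on the side higher in as1-1. On the side higher in as2-1 stood QQS, an orphan gene linked to starch content, AT3G22240, and AT1G04770, a gene of the sulfur-limitation list. Of 13988 measured probe sets, 51.1% had a difference above 0, the share against which counts of list members by direction can be set. Of the same probe sets, 120 were at least 2-fold apart, or 0.858%, with 71 higher in as1-1 (0.508%) and 49 lower (0.35%). Of the 120, 98 were under 3-fold, 11 between 3-fold and 4-fold and 11 at 4-fold or more, and 14 were lower bounds. Probe sets with 1 named gene made up 54 of the 120, or 0.707% of the 7633 measured, and the other 66 had no function assigned. At 1.5-fold 883 probe sets were apart (6.31%), 501 higher (3.58%) and 382 lower (2.73%). Only 3 of the differences of 4-fold or more were higher in as1-1, and 8 were lower. For comparison, 3.19% of probe sets were 2-fold apart between as1-1 and wild type and 3.61% between as2-1 and wild type.

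**Figure D1:**
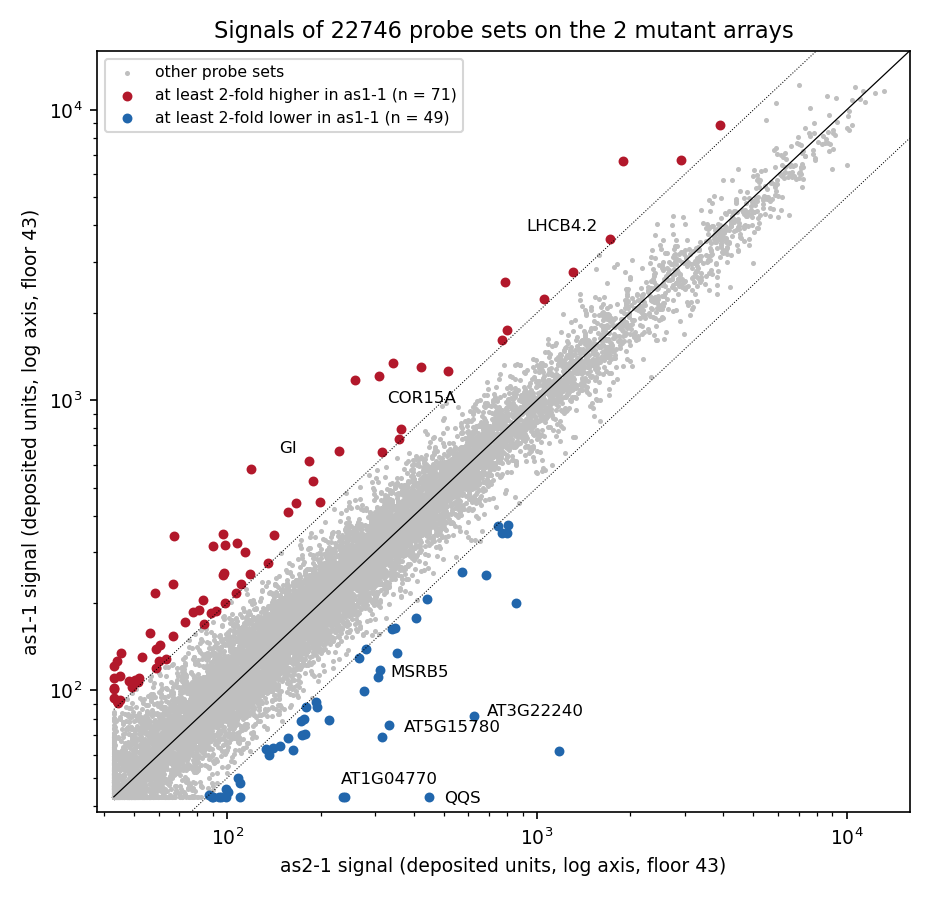
Signal in as1-1 (vertical) against as2-1 (horizontal) for 22746 probe sets, in deposited units on log axes with signals under 43 drawn at 43. The solid line marks equal signals and the dotted lines 2-fold. The 71 probe sets higher in as1-1 are red and the 49 lower are blue, and labelled points are genes described in the text.

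The spread between the arrays was largest at low signal. Of 5 equal bins of mean signal, in the lowest, from 43 to 85.5, the robust standard deviation of the log2 differences across probe sets was 0.31, and in the highest, from 490.2 upward, it was 0.23. The share of probe sets 2-fold apart did not fall steadily with signal. From the lowest bin to the highest it was 1.04%, 1.18%, 0.858%, 0.501% and 0.715%. In the highest bin 16 probe sets were higher in as1-1 and 4 lower, whereas the second held 16 and 17. A limited check came from 77 genes measured by several probe sets, whose differences lay a median of 0.24 apart on the log2 scale and at most 0.85. Of these genes 2 had a probe set at 2-fold. AT2G30600, a BTB/POZ domain gene, was higher in as1-1 by both of its probe sets, at 413.3 against 157.5 and 668.2 against 229.6. AT2G38840 reached 2-fold by 1 probe set (45.6 against 99.4) and not by the other (44.8 against 54.2).

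Cold and dehydration genes were higher in as1-1. All 4 measured members of the list of 20 lay at least 1.5-fold above as2-1, where 3.58% of all probe sets did. Of these, 1 reached 2-fold, where 0.508% of all probe sets did. The list's other loci had no named probe set and were not examined. COR15A had signals of 394 in wild type, 1216.6 in as1-1, 309.5 in as2-1 and 315.6 with AS2 overexpressed, so as1-1 alone was high. The log2 difference between the mutants was 1.97, or 3.93-fold. COR15B, its close neighbour and homologue, whose transcripts may share probes, stood at 651.8, 1317.4, 783.6 and 1061.6 on the same arrays (log2 difference 0.75). LTI30, a dehydrin gene, stood at 115.9, 261, 154.4 and 107.6 (0.76).

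COR47, also a dehydrin gene, stood at 1264.5, 3044.8, 2029.2 and 934.7 and was just past 1.5-fold (log2 difference 0.59). In each of the 4 genes as1-1 was the highest of the 4 arrays and at least 2-fold above wild type. The as2-1 array lay within 1.5-fold of wild type for 3 of them, COR47 being the exception. The list median was 0.75, beside 0.0078 for all measured probe sets.

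Evening-phased clock genes had higher signals in as1-1 in 3 of 3 measured members of a list of 12, and 1, GI, reached 2-fold. Over all probe sets 51.1% were above 0 and 0.508% were higher by 2-fold, and 3 genes are few to set against these shares. The list's other loci had no named probe set. GI had signals of 602.3 in wild type, 616.2 in as1-1, 183.6 in as2-1 and 642.4 with AS2 overexpressed. Here as2-1 alone was low, and the difference between the mutants was 1.75 on the log2 scale, or 3.36-fold. COR27, a cold-regulated gene tied to the clock, stood at 134, 953, 675.7 and 925.1, so it was high on every array except wild type (log2 difference 0.50). AT4G33980, a relative of COR27, stood at 51.7, 275.7, 158.7 and 264.4 (0.80). No member of the list of 9 morning-phased genes was named in the table used here.

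Of 5 measured nuclear photosynthesis genes in a list of 20, 4 had signals below wild type in both mutants and lowest in as2-1. The rest of the list had no named probe set. LHCB4.2, a minor antenna protein of photosystem II, stood at 9224.4 in wild type, 3592.7 in as1-1, 1726 in as2-1 and 5852.9 with AS2 overexpressed, 2.08-fold higher in as1-1 than in as2-1. PORB, which makes chlorophyllide in the light, stood at 6011.1, 4005.9, 2727.6 and 6261.8 (log2 difference 0.55). TRXF2, a chloroplast thioredoxin, stood at 1046.3, 483.9, 335.2 and 722 (0.53).

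RCA, Rubisco activase, was also below wild type in both mutants but was the exception in their order. It stood at 9159.9 in wild type, 4971.3 in as1-1 and 5583.6 in as2-1 (log2 difference -0.17). LHCB4.1, a near copy of LHCB4.2 with which it may share probes, stood at 7718.7 and 6937.2 (0.15). The list median was 0.53, and 1 of the 5 genes was 2-fold higher in as1-1, where 0.508% of all probe sets were. A second list, of 5 antenna and photosystem genes drawn by words in their names and sharing LHCB4.1 and LHCB4.2 with the first, had a smaller median of 0.15. In it PSBW and PSBY were lowest in as2-1, at 3970.6 and 4071.5 in as1-1 and 3710.4 and 3433.4 in as2-1. LHCB4.3, at 96.1 in wild type, 121.2 in as1-1 and 136.6 in as2-1, went the other way.

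Genes encoded in the plastid genome were near the array as a whole. Of 69 measured probe sets 29 were higher in as1-1 and 40 lower, beside 51.1% higher over all probe sets, with a median log2 difference of -0.083, and 1 was 2-fold apart: petN, a small subunit of the cytochrome b6f complex, at 188.3 in as1-1 and 91.9 in as2-1. The plastid ribosomal protein genes were the class farthest to the as2-1 side, with 11 of 15 lower in as1-1 and a median of -0.27. Among them rpl22 stood at 1609.9 in as1-1 and 2420.4 in as2-1, rpl36 at 2189.4 and 3278.6 and rps16 at 226.3 and 320.3. On the wild type array these 3 genes had 2315.4, 3632.3 and 288.1, so as2-1 lay closer to wild type than as1-1 did.

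Plastid RNA polymerase genes had a median of -0.23 over 4, and the photosystem genes one of 0.076 over 20. The genes for ATP synthase and cytochrome b6f stood at -0.032 over 12 and the NDH complex at 0.036 over 10. The largest of the remaining plastid differences were ndhF (315.9 against 197.5), psbA (897.8 against 574.3) and psbM (6470.6 against 10029.1). Array labelling starts from poly(A) tails in the standard protocol, so plastid transcripts, which mostly lack them, are read less directly.

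Auxin response genes lay to the as1-1 side in 4 of 5 measured members of a list of 17, beside 51.1% of all probe sets above 0, with a median log2 difference of 0.59 and none at 2-fold. WES1, a GH3 enzyme that joins auxin to amino acids, stood at 623.6 in wild type, 944.4 in as1-1, 621.6 in as2-1 and 540.5 with AS2 overexpressed. The SAUR gene AT3G53250 stood at 10, 297.8, 197.7 and 67.1, high in both mutants. IAA29, an Aux/IAA repressor of auxin response, was at 53.8, 78.9, 17.8 and 53.6, which puts it at least 1.83-fold higher in as1-1. The family member IAA30 had 61.3 in as1-1 and 51.8 in as2-1. GH3.3, a relative of WES1, had 130.8 and 145.7.

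Of the glucosinolate genes 1 of 4 measured was 2-fold higher in as2-1, and the others had smaller differences to the same side, from 1.23-fold to 1.46-fold. Over all probe sets 0.35% were lower in as1-1 by 2-fold and 51.1% were above 0. These genes make and move the sulfur-rich defence compounds of the cabbage family. In all 4 measured members of a list of 22 the order was wild type, then as1-1, then as2-1, with as2-1 the highest of the 4 arrays. The list's other loci had no named probe set. The share of all probe sets in that order was not counted. For BCAT4, as1-1 lay only 0.09 above wild type on the log2 scale. GTR1, a transporter that loads glucosinolates into the phloem, stood at 123.9 in wild type, 139.2 in as1-1, 279.6 in as2-1 and 114.4 with AS2 overexpressed, and it was the 1 member to reach 2-fold (2.01-fold).

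BCAT4, an aminotransferase of methionine chain elongation, stood at 2175.1, 2317.9, 2845.1 and 694.9. AT2G31790, a glycosyltransferase of the list, stood at 394, 564.2, 823.5 and 254.3. GTR2, the second transporter, stood at 273.8, 375.7, 476.3 and 360.4. The list median was -0.44.

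The NPF family of nitrate and peptide transporters, added after values were seen, counts GTR1 and GTR2 a second time. Of 11 probe sets 6 were measured, 5 of them lower in as1-1 and 2 by 2-fold. Over all probe sets 51.1% were above 0 and 0.35% were lower by 2-fold. The median log2 difference was -0.69. With a floor of 20 it was -0.37, and 3 of 8 were higher in as1-1. AT1G68570, or NPF3.1, stood at 95.7 in wild type, 68.5 in as1-1, 156.8 in as2-1 and 95.9 with AS2 overexpressed. AT1G59740 came just under 2-fold, at 183.6, 45.5, 89.9 and 287, and both mutants were far below the other arrays. AT2G26690 was the exception, at 576.5 in as1-1 and 427.1 in as2-1. The other 5 lay under 43 in both mutants, and of these AT3G21670 stood at 122.4 in wild type.

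Sulfur-linked genes held one of the largest differences. AT1G04770, of a gene pair induced when sulfur is short, stood at 64.2 in wild type, 34 in as1-1, 240.7 in as2-1 and 95.1 with AS2 overexpressed, at least 5.60-fold lower in as1-1 than in as2-1. The ATP sulfurylase genes of the same list went both ways, with APS3 at 214.7 in as1-1 and 320.3 in as2-1 and APS4 at 235.8 and 195.9. These 3 were the measured members of a list of 20, and their median log2 difference was -0.58. Glutathione S-transferases are detoxifying enzymes that use the sulfur peptide glutathione. Words in gene symbols found 12 of their probe sets, which need not be the whole family. All 6 measured were lower in as1-1, where 51.1% of all probe sets were above 0. None was lower by 2-fold, and the median was -0.35. GSTU27 led them with 209.5 in wild type, 178.2 in as1-1 and 326.4 in as2-1.

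MSRB5 and MSRB6, neighbouring genes for enzymes that repair oxidised methionine, went opposite ways. MSRB5 stood at 180.4 in wild type, 110.9 in as1-1, 306.5 in as2-1 and 87 with AS2 overexpressed, 2.76-fold lower in as1-1 than in as2-1. MSRB6 stood at 239.9, 155.7, 90.5 and 51.1 (log2 difference 0.78). The other 3 measured members of the family differed by less than 0.2 on the log2 scale.

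**Figure D2:**
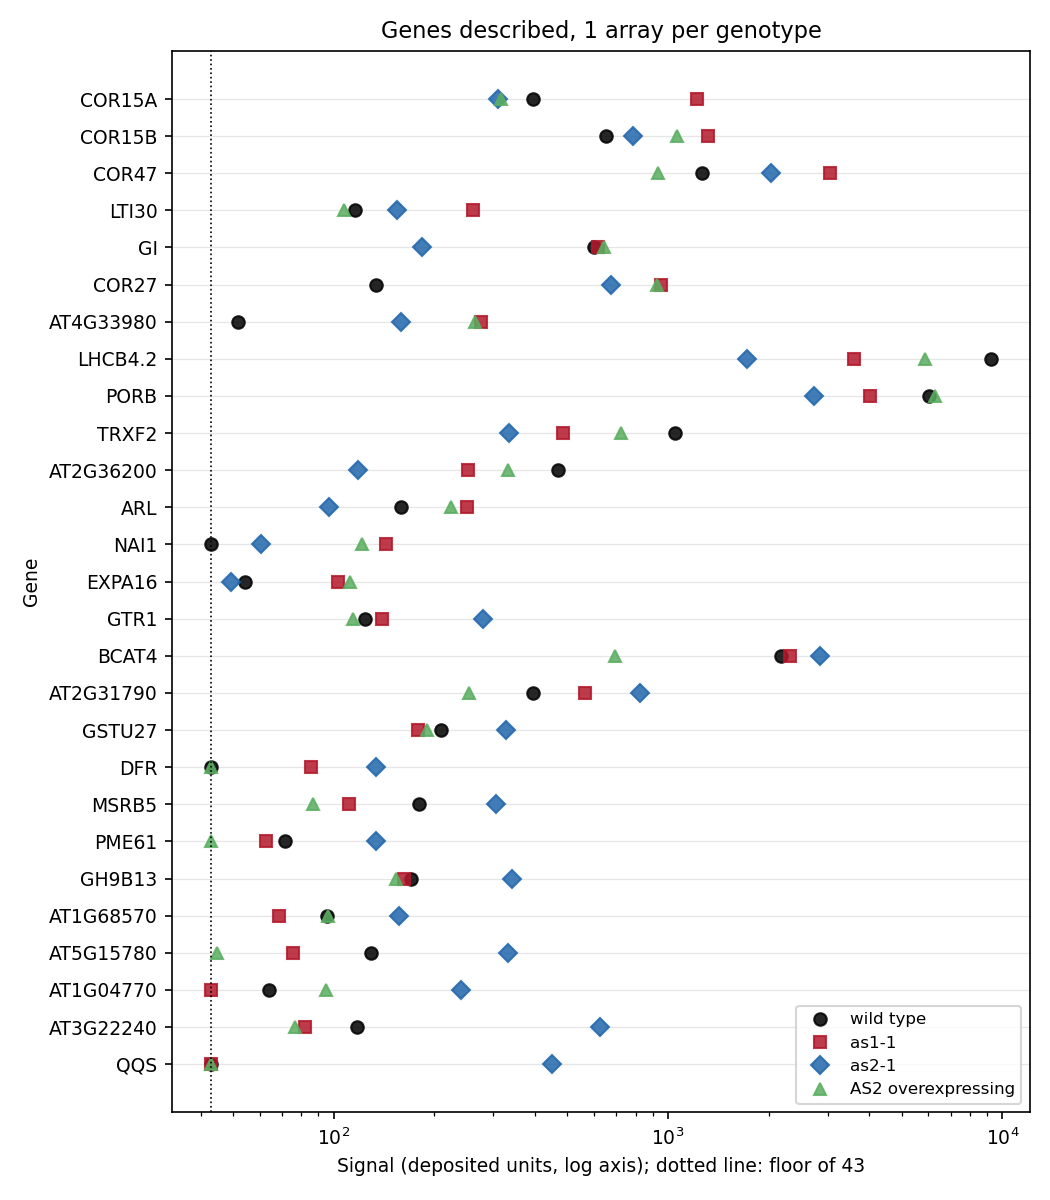
Signals of genes described in the text on the 4 arrays, 1 array per genotype, in deposited units on a log axis, with signals under 43 drawn at the dotted line. COR15A stands apart in as1-1 (red squares), and GI, GTR1, AT1G04770, AT3G22240 and QQS stand apart in as2-1 (blue diamonds).

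Anthocyanin genes were present at low signal and leaned to as2-1 in 3 of 3 measured members of a list of 13. Over all probe sets 51.1% were above 0. With a floor of 100 only 1 member was measured. DFR, which makes the precursors of the pigments, stood at 41.6 in wild type, 85.3 in as1-1, 133.8 in as2-1 and 22.7 with AS2 overexpressed. UF3GT, a glycosyltransferase that decorates them, was above 43 only in as2-1, at 71.3 against 32 in as1-1, at least 1.66-fold. AT4G14090, at 41.7 in as1-1 and 55.1 in as2-1, was also a lower bound, at least 1.28-fold. UGT78D1, a flavonol glycosyltransferase, had 455.9 in as1-1 and 699.4 in as2-1. Over the 21 measured UDP-glycosyltransferases the median difference was 0.082 and none reached 2-fold.

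Genes of the cell wall differed singly and in both directions. PME61, a pectin methylesterase, stood at 71.6 in wild type, 62.7 in as1-1, 133.6 in as2-1 and 28.5 with AS2 overexpressed. Words in gene symbols found 4 pectin methylesterase probe sets, which need not be the whole family, and this group was added after values were seen. The 3 measured were lower in as1-1 (median -0.75), where 51.1% of all probe sets were above 0. PMEPCRF had nearly equal signals, 148.4 and 155.6. With a floor of 100 the median was -0.24 over 2. GH9B13, of the glycosyl hydrolase family that holds plant cellulases, stood at 170.6, 162.5, 340.9 and 153.3, high in as2-1 alone. The other 4 measured members of that family lay within 0.3 on the log2 scale. EXPA16, an expansin that loosens walls, was on the opposite side, at 54.2, 103.1, 49.4 and 111.9, while EXLB1 had 46 in as1-1 and 86.9 in as2-1 and EXPA15 394 and 645.3. Over 16 expansin and xyloglucan enzyme probe sets the median was 0.056.

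Leaf polarity genes, which the complex is known to act on, had 4 measured members of a list of 21. None was a class I KNOX gene. No member reached 1.5-fold, where 6.31% of all probe sets did, so none in 4 is near that share. AGO7 came closest, at 1.49-fold, and the median log2 difference was -0.18. YAB5, a YABBY gene of the abaxial side, stood at 149.7 in wild type, 350.8 in as1-1, 383.9 in as2-1 and 4.9 with AS2 overexpressed. AGO7, which makes the small RNAs that restrain ARF3 and ARF4, stood at 24.9, 55.2, 82 and 45.2. A list of 16 heat and chaperone genes had 2 measured members, AT3G09440, an Hsp70, and AT2G19310. Like YAB5, both were well above wild type in both mutants, and their mutant signals lay within 0.4 on the log2 scale.

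Growth and division genes gave single differences. ARL, an ARGOS-like gene that promotes cell expansion, stood at 158.6 in wild type, 250.1 in as1-1, 96.6 in as2-1 and 223.8 with AS2 overexpressed. AT2G36200, a kinesin motor gene and the 1 named member of a list of 7 division genes, stood at 467.2, 252.6, 118.2 and 331.4, so both mutants were below wild type and as2-1 was lowest. KINESIN-12B, which works in the division plane, had nearly equal signals of 164.7 and 181 in the mutants. NAI1, a bHLH regulator of endoplasmic reticulum bodies, stood at 31.8, 143.2, 60.7 and 121.2, low in wild type and as2-1.

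Lists drawn by words in gene symbols miss members named otherwise, such as the bHLH gene NAI1 and the glutaredoxin gene AT5G18600, both more than 2-fold higher in as1-1. Type A cytokinin response regulators (2 measured), and the WRKY (5), bHLH (6), MYB (2) and histone (3) genes found by those words in their symbols, had none at 2-fold, with medians of -0.11, -0.022, 0.14, 0.25 and 0.20. The thioredoxin and glutaredoxin genes found by symbol had a median of -0.15 over 10, and cytochrome P450 genes one of 0.15 over 8, with CYP71B37 at 98.7 and 60.2 and CYP71B26 at 255.4 and 156.2. THI2.2, a thionin gene, stood at 424.6 in as1-1 and 250.7 in as2-1. The 2 named jasmonate genes lay under 43 in both mutants, and the senescence list had no named member.

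**Figure D3:**
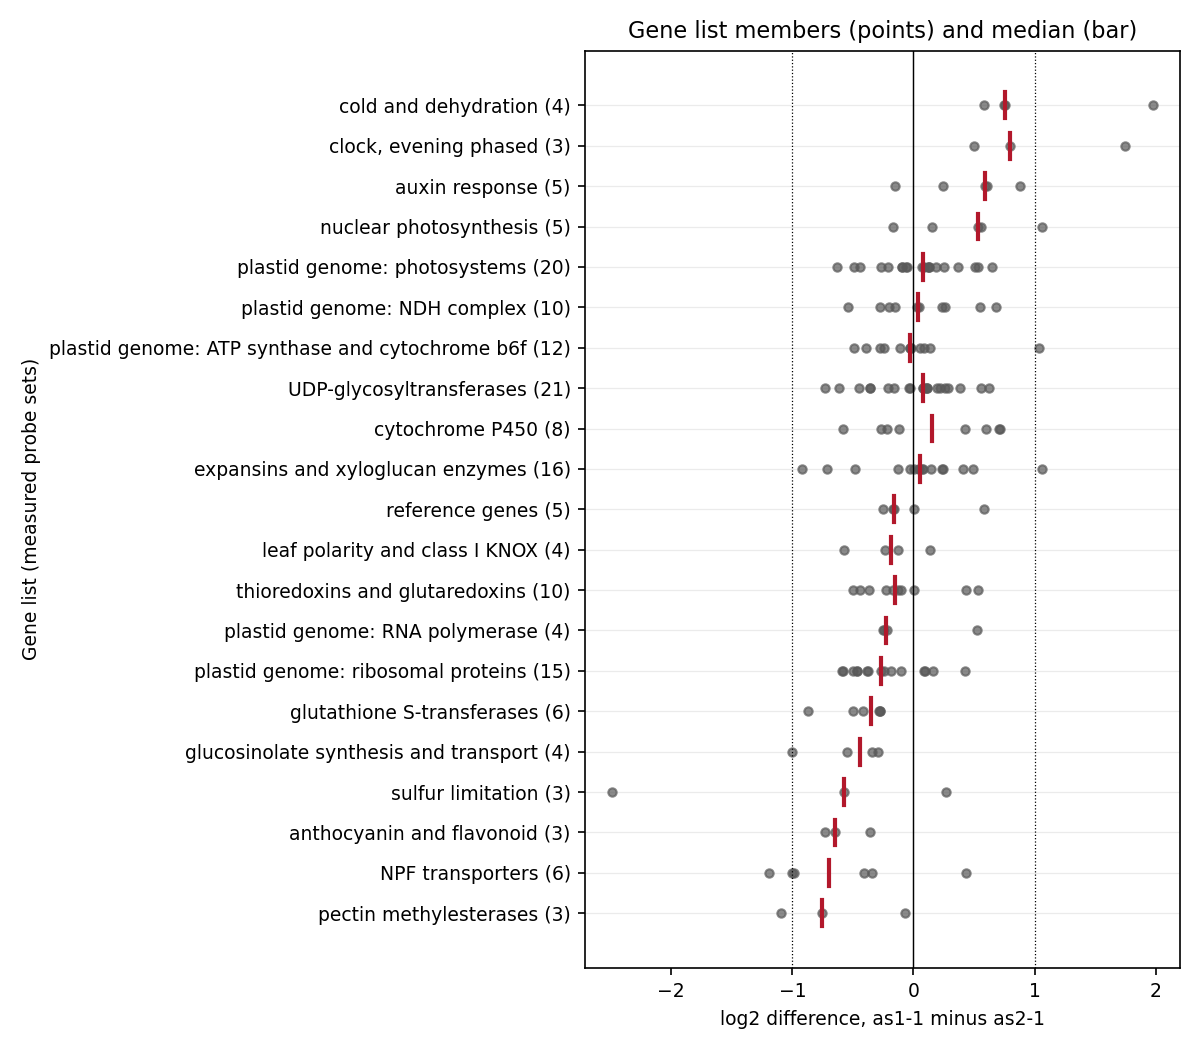
Differences of list members on the log2 scale, as1-1 minus as2-1, with each measured probe set as a grey point and the list median as a red bar. Dotted lines mark 2-fold, and the number of measured probe sets follows each name. Cold, clock, auxin and nuclear photosynthesis lists have medians from 0.53 to 0.80, and the glucosinolate, sulfur, anthocyanin, NPF and pectin methylesterase lists from -0.44 to -0.75.

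The largest differences of named genes were in genes high in as2-1. QQS had signals of 18.6 in wild type, 24.9 in as1-1, 449.1 in as2-1 and 29.5 with AS2 overexpressed, at least 10.4-fold lower in as1-1. AT3G22240, of the salicylic acid and pathogen response list, stood at 117.1, 81.8, 626.1 and 76.4, or 7.65-fold. The 1 other measured member of that list of 16, SAG101, was near 43 on both arrays, at 43.2 and 39.7. AT1G19960 stood at 8.8, 36.6, 236.9 and 17.7, at least 5.51-fold. In QQS, AT3G22240 and AT1G19960 as2-1 alone was high.

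AT5G15780 stood at 129.2 in wild type, 75.8 in as1-1, 333.2 in as2-1 and 44.9 with AS2 overexpressed, 4.40-fold lower in as1-1 than in as2-1, and its mutants lay on opposite sides of wild type. AT1G62660, a vacuolar invertase gene, did the same at smaller size, with 120.5, 79.2, 212.7 and 124.7. The genes listed next, from the 15 largest named differences lower in as1-1, lay between 2.12-fold and 2.30-fold. That range follows in part from the 2-fold cut and the choice of the largest. For AT3G04950 (47.9 in as1-1, 110.3 in as2-1), AT2G25510 (348.9, 802.9), AT3G63340 (59.7, 136.2) and AT3G52030 (178.4, 405.5), as1-1 was the array within 1.5-fold of wild type. For AT1G05170 (44.8, 100.4), AT1G62780 (256.9, 571.1), AT4G12830 (78.7, 172.4) and AT3G46490 (91, 193.1), as2-1 was. AT3G17640 had 37.7 and 99.3, at least 2.31-fold.

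Among the other genes higher in as1-1, AT5G60840 (125.9 in as1-1, 44 in as2-1), AT2G05540 (1265, 516.2), AT2G20670 (186.4, 77.4) and AT3G09860 (139.1, 58.7) were near wild type in as1-1 and lower in as2-1. AT1G33790, a jacalin lectin gene (157.3, 56.4), AT4G27050 (172.5, 73.1) and AT5G18600, a glutaredoxin gene (154.1, 66.9), were near wild type in as2-1 and higher in as1-1. AT1G67865 (342.9, 141.4) was above wild type in both mutants. AT3G28220 (300.7, 114.3), a TRAF-like gene, was below wild type in both. AT1G23130 and AT3G27473 were above 43 in as1-1 only, at 121.5 and 101.2, at least 2.83-fold and 2.35-fold higher.

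Across the 120 probe sets, as2-1 was more often the array that stood off from wild type. In 60 of them as1-1 lay within 1.5-fold of wild type and as2-1 did not, in 30 the reverse held, and in 3 both lay within it. In 19 both mutants were beyond 1.5-fold on the same side, and in 8 on opposite sides. Among the 49 higher in as2-1 the counts were 29 with as1-1 near wild type and 11 with as2-1 near it, and among the 71 higher in as1-1 they were 31 and 19. At least 2-fold from all 3 other arrays stood as2-1 in 43 probe sets and as1-1 in 11. Over all probe sets the counts were 87 for wild type, 72 with AS2 overexpressed, 44 for as2-1 and 11 for as1-1. So wild type and the AS2 overexpressing line stood apart more often than either mutant. Both mutants' differences from wild type share 1 wild type array, so these counts are a description.

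**Figure D4:**
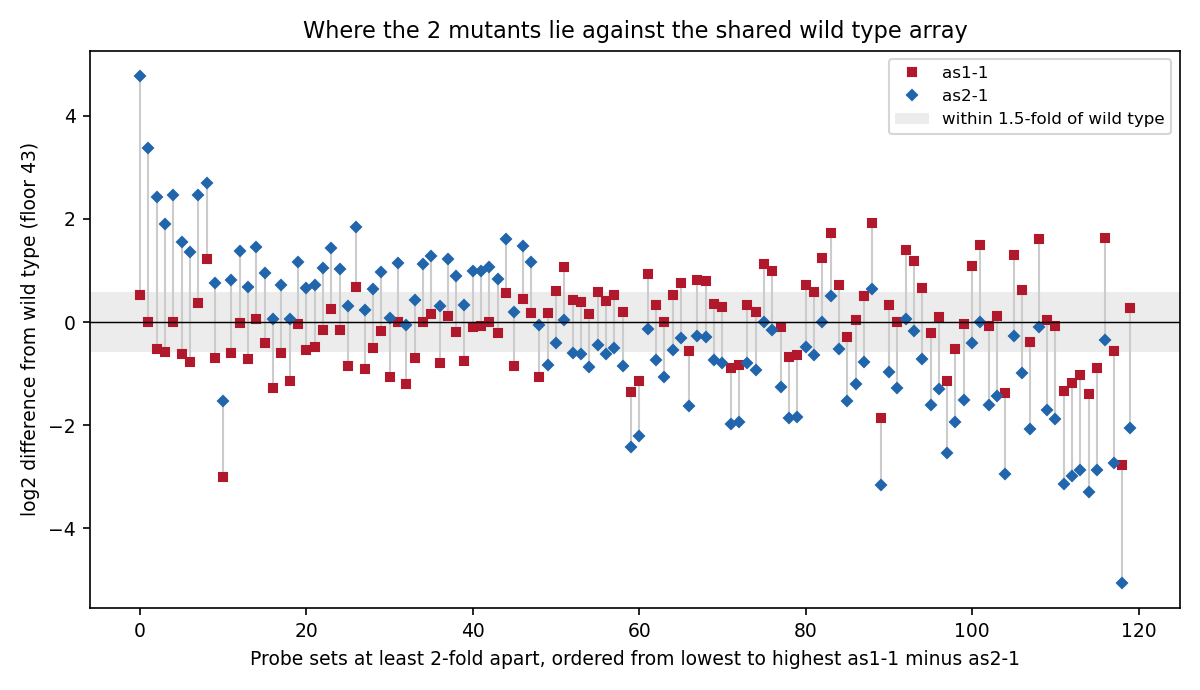
Log2 difference from the shared wild type array for as1-1 (red squares) and as2-1 (blue diamonds) in each of the 120 probe sets, ordered by as1-1 minus as2-1, with signals under 43 raised to 43. The grey band spans 1.5-fold on either side of wild type. It holds the as1-1 point alone in 60 probe sets and the as2-1 point alone in 30.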

How the data were processed

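Total RNA from 4 samples was labelled and hybridised to Affymetrix arrays, per the labels' protocols. The deposited values are a linear signal intensity per probe set, while software, scaling and array build are not given in the sources used here. After dropping the top and bottom 2% of values the mean lay between 198.4 and 198.5 on each array, so signals were used as deposited. Some sample text speaks of embryos; the tissue and growth labels were followed. Of 22746 probe sets 13513 had 1 gene in the naming table, 503 had several and 8730 had none, and symbols came from RefSeq (TAIR10.1). No sequence is printed, and a planned search of promoters for motifs was not run.

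No test was possible with 1 array per genotype. Named genes were the 15 largest differences per direction, up to 8 lower bounds, 2-fold members of 19 lists of 262 loci (57 on the array by name), up to 3 members of each list, and 2 unnamed probe sets per direction. Members and lists were chosen with earlier results of these data known, and the gene families were added after values were seen. Of 22 lists drawn by words in the gene names, 7 matched nothing. Alternatives were floors of 20 and 100, median centring, quantile normalization, loess (span 0.3) and named probe sets only. Python 3.11.15, numpy 2.4.6, pandas 2.3.3 and statsmodels 0.14.6 were used. The code for the 2-fold calls was also run on simulated data, with changes larger than 2-fold placed only in probe sets of higher signal. The simulated spread was smaller than that between these arrays, so the run does not measure how reliable the calls are.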

Additional observations from a re-analysis of the deposited data

How the results depend on the processing

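The 120 probe sets at least 2-fold apart became 230 with a floor of 20 (129 higher and 101 lower in as1-1) and 66 with a floor of 100 (41 and 25). Counting only probe sets with 1 named gene left 54 (33 and 21), 0.707% of those measured. Centring gave 124, quantile normalization 119 and loess 120, of which 120, 113 and 115 were among the 120. The lower floor kept all 120 and the higher floor 66, and 0 shared calls changed direction under any alternative. The higher floor took 18 named genes under 2-fold, among them NAI1 (log2 difference 0.52), EXPA16 (0.044), PME61 (-0.42), AT1G68570 (-0.65) and petN (0.91), and left AT3G17640 and AT2G38840 unmeasured, by its construction. The lower floor brought IAA29 (1.98) and UF3GT (-1.16) past 2-fold, and loess brought AT1G59740 to -1.001. List medians changed sign for the glycosyl hydrolase family 9 genes (from 0.0065 to -0.0070 with centring, -0.024 with quantile normalization, -0.017 with loess and -0.027 with the higher floor). They also did so for cytochrome P450 genes (-0.045 and -0.12 with the lower and higher floor). With the higher floor the median of methionine sulfoxide reductases became 0.11, over 3 measured members in place of 5. That of SAUR and Aux/IAA genes went from 0.24 over 3 to -0.052, the value of the 1 gene left, IAA18. No other list of at least 3 measured members changed sign. No paired analysis was possible because each genotype has 1 array. The number of arrays limits every value, and low signal those near the floor.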

Other observations

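The 54 named probe sets at least 2-fold apart were 0.707% of those measured, and the shares by nuclear chromosome lay on both sides of that. Chromosome 2 held 13 of 1087 measured (1.196%), 11 of them higher in as1-1, with AT2G30600 counted by 2 probe sets. Chromosome 3 held 16 of 1560 (1.03%). Chromosome 1 held 15 of 1974 (0.760%), chromosome 4 held 4 of 1117 (0.358%) and chromosome 5 held 5 of 1813 (0.276%). Within 200 genes on either side of the AS1 locus 2 of 95 were apart, AT2G36200 and AT2G38840, the latter by 1 of its 2 probe sets. Within the same distance of the AS2 locus 0 of 77 were. Both counts are too small to be set against the 0.707% of all named probe sets.

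Probe sets with no gene in the naming table held the largest difference in each direction. Probe set 256766_at had signals of 17.2 in wild type, 61.7 in as1-1, 1174.6 in as2-1 and 79.1 with AS2 overexpressed, 19.0-fold lower in as1-1 than in as2-1. Probe set 254343_at stood at 107.2, 69.4, 314.9 and 139.7. Higher in as1-1 were 252415_at, at 280.5, 339.6, 67.1 and 751.1, and 258239_at, at 3956.5, 579.6, 119.3 and 1109.8. In all, 66 of the 120 probe sets had no single named gene and were not assigned to a function.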
